A study of Mus musculus with 6 samples.

Results

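Cytochrome P450 enzymes of families 1 to 4 are haem-containing monooxygenases of the endoplasmic reticulum. Their members were taken as all probe sets of the Affymetrix Mouse 430A array with exactly 1 annotated symbol made of Cyp, a family digit from 1 to 4, a subfamily letter and a number. This gave 57 probe sets of 48 genes, among 22626 non-control probe sets and 12393 genes with a symbol of their own. Family 1 held 3 genes, family 2 held 31, family 3 held 5 and family 4 held 9. Lung RNA came from female ob/ob mice of strain B6.V-Lepob/J at about 1 month of age. All animals, the saline-treated included, carry the Lepob mutation and make no functional leptin, and leptin-treated animals (3 arrays) were set against saline-treated ones (3 arrays). The labels give 1 animal per array and say nothing of dose, route or duration. Since each array measured RNA of a whole lung, fewer cells of a type and less RNA per cell cannot be told apart in any value below.

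P450s of these families take electrons from NADPH, by way of P450 reductase or cytochrome b5, and insert oxygen into foreign compounds, fatty acids, eicosanoids and steroids. Family 1 is induced through the aryl hydrocarbon receptor (Ahr), Cyp2b and Cyp3a genes through the nuclear receptors CAR (Nr1i3) and PXR (Nr1i2), and Cyp4a genes through PPAR-alpha. The liver holds most of this activity, but in the rodent lung the nonciliated secretory club cells of the small airways carry a P450 set of their own, best known for turning naphthalene into a toxic epoxide.

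Saline replicate 1 stood apart and is kept apart here. Across probe sets its log2 values correlated with each other array at 0.438 to 0.447, and pairs among the remaining 5 at 0.973 to 0.978. Its 10th percentile of intensity was 57.1 against 16.4 to 19.3, and 18 probe sets of spiked-in hybridisation controls were at a median of 29.995 times their level elsewhere. The Y-linked Uty, which a female lacks, read 1108 there and at most 67.3 elsewhere on its brighter probe set, and Eif2s3y, also Y-linked, read 84.9 there, near that array's raised 10th percentile, and at most 3.4 elsewhere. Xist, the transcript of the inactive X of females, read 7896 there against 2697 to 3646 on its brightest probe set and 578 against 1055 to 1553 on the next. Of these values, those of Uty went against the label of a female and those of Xist went both ways. Of the P450 probe sets, 38 read higher on it than on all other arrays and 11 lower. Over all non-control probe sets, 54.6% read higher and 33.8% lower. The saline replicates are called saline 1, 2 and 3 below.

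By signal, the P450s of this lung formed a small bright set and a long dim tail. The values below are linear intensities in array units, after scaling of each array to a common mean near 500. Probe sets differ in how well they hybridise, so the order is one of signals and not of transcript amounts. Cyp2f2, the club cell enzyme that activates naphthalene, was the brightest member at 22225 (mean of the 5 arrays other than saline replicate 1) and ranked 7 among all 22626 probe sets. Cyp4b1, a lung monooxygenase of fatty acids and of the furan toxin ipomeanol, followed at 9666. The 3 probe sets of Cyp2b10, the gene classically induced by phenobarbital through CAR, were at 6512, 5502 and 3773. Cyp2s1, an extrahepatic P450 of epithelia, was at 1795 and Cyp1a1, the aryl hydrocarbon hydroxylase, at 1038. These 5 genes were the only members with a probe set of 1000 or more.

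The next members were Cyp2d22 at 821 and 526, Cyp4v3, a fatty acid omega-hydroxylase, at 711 and 354, and Cyp2e1, the ethanol-inducible P450, at 491. In all, 16 of 57 probe sets lay above the median of all probe sets (229), and the median member was at 86.2, in percentile 27.9. Those above the median belonged to 12 genes. The 11 Cyp2c probe sets had means between 12.7 and 197, the 5 of Cyp2j between 6.52 and 82.8, the 5 of Cyp3a between 5.56 and 174, and the 2 of Cyp4a between 6.34 and 16.6. All probe sets of these 4 subfamilies were therefore below the array's median signal. No detection calls were used here, so a dim value is not shown to differ from background. Of markers of the hepatocyte, Fgb (fibrinogen beta) was near the floor on the 5 arrays, at 2.2 to 3.6, whereas Alb (albumin) read 240 to 312.

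**Figure D1:**
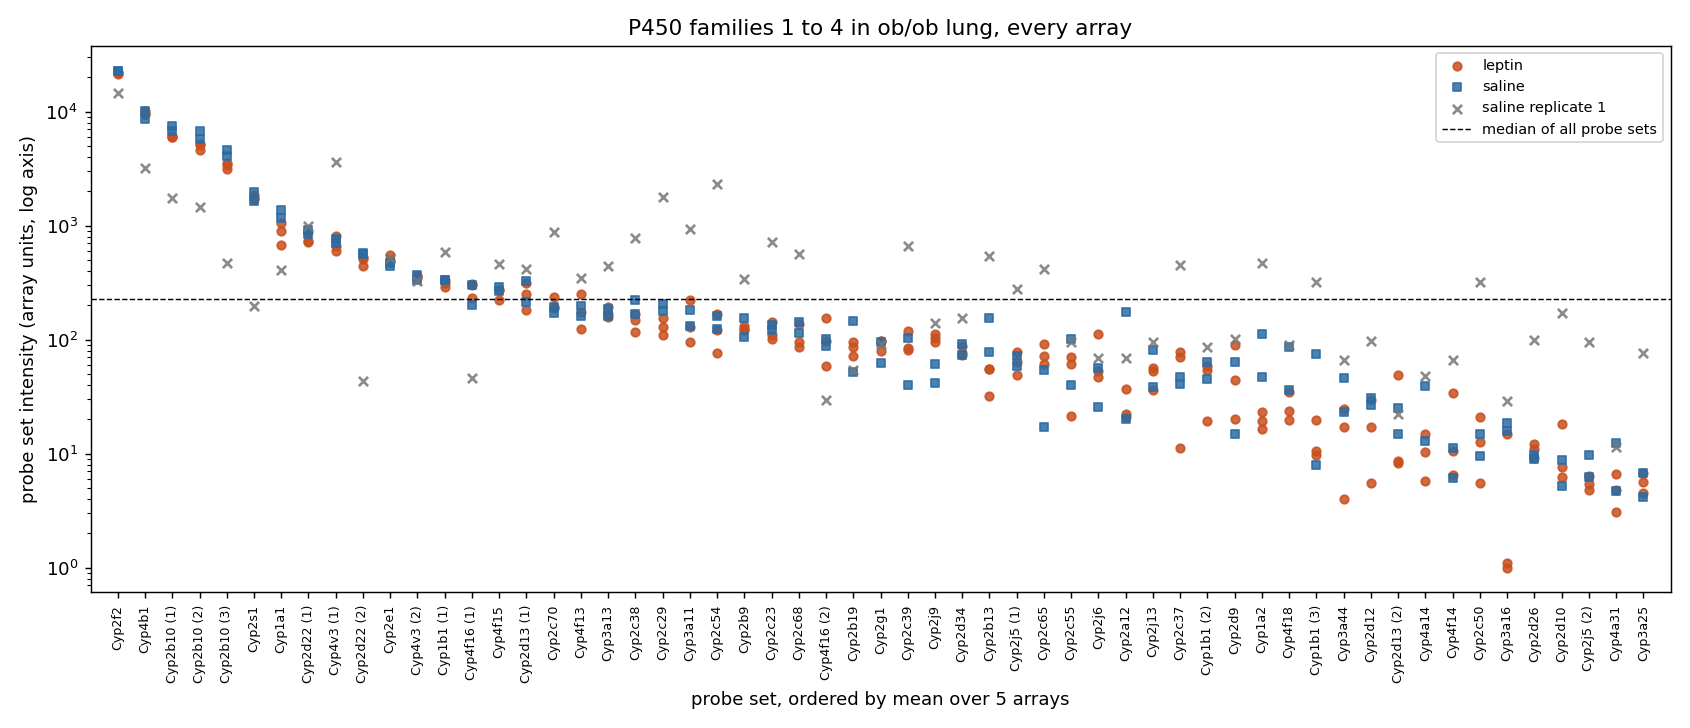
Intensity of each of the 57 P450 probe sets (log axis, array units) on the 3 leptin arrays (circles), saline replicates 2 and 3 (squares) and saline replicate 1 (crosses), ordered by the mean over the other 5 arrays; numbers in brackets tell apart probe sets of 1 gene. Cyp2f2, Cyp4b1, Cyp2b10, Cyp2s1 and Cyp1a1 stand at 1000 or more, 16 probe sets lie above the dashed median of all probe sets (229), and saline replicate 1 lies below the others among the brightest members and above them in most of the tail.

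No P450 differed between leptin and saline past the adjusted threshold. Among those bright enough to test, Cyp1a1, Cyp2c29, Cyp2c38, Cyp2c68 and the 3 Cyp2b10 probe sets had the lowest values with leptin relative to saline replicates 2 and 3, at log2 changes of -0.53 to -0.24, while the brightest, Cyp2f2 and Cyp4b1, were at -0.06 and 0.05. The comparison used limma on log2(intensity + 22), a scale that understates changes of dim probe sets, on the 5 arrays other than saline replicate 1, with all 6 arrays given beside it. Of the 57 probe sets, 27 (22 genes) were bright enough to be tested and 30 were in the lowest 30% by mean and left out. In the 5-array fit no member passed an adjusted p of 0.05 (limma with Benjamini-Hochberg adjustment over 15839 probe sets, smallest adjusted p among members 0.970), where 0.0442% of all tested probe sets passed. At an unadjusted p under 0.05, 4 of 27 members were lower with leptin and 0 higher, where 1.98% of all tested probe sets were lower and 2.61% higher. The 4 were the 3 probe sets of Cyp2b10 and the probe set of Cyp1a1, and so stand for 2 genes. On all 6 arrays no member had an unadjusted p under 0.05 (limma, smallest 0.121), where 0.183% of tested probe sets were lower at that level and 0.202% higher, and 0% passed the adjusted threshold. The 4 became 2 without leptin replicate 3 or saline replicate 2 and 1 without saline replicate 3.

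Counted by overlap, 8 of the 27 tested probe sets (6 genes) had every leptin array below saline replicates 2 and 3, and 1, Cyp2e1, had every leptin array above them. Among all tested probe sets 9.66% separated downwards and 9.92% upwards. The 6 genes were Cyp2f2, Cyp2b10, Cyp1a1, Cyp2d22, Cyp2c38 and Cyp2c29. With saline replicate 1 included, only Cyp2c38 and Cyp2c29 still separated, where 4.1% of probe sets did so downwards and 5% upwards. The log2 change was below 0 in 19 of 27 members, where 49.8% of tested probe sets were below 0. By family, it was below 0 in 2 of 2 tested probe sets of family 1, 14 of 16 of family 2 and 1 of 2 of family 3. In family 4 it was below 0 in 2 of 7, which became 6 of 7 without saline replicate 2. The 14 of family 2 include the 3 probe sets of Cyp2b10. They became 12 of 16 without leptin replicate 3, 12 of 17 without saline replicate 3 and 15 of 17 without saline replicate 2. On all 6 arrays family 2 was at 10 of 17. The difference between families was not tested. On all 6 arrays the count over all members was 17 of 27, where 48.7% were below 0. On 5 arrays the median change was -0.10 over the members and 0.00 over all tested probe sets, and 18 of the 27 members were within 0.2 of 0. The members' median was -0.21 without leptin replicate 1 and -0.056 without leptin replicate 2. With the replicate block it was also -0.21. On 5 arrays leptin replicate 1 has no saline partner, so the block gives the same changes as leaving that array out and is not a separate alternative. The series' own rule (at least 1.5-fold, p under 0.05, and 6 of 9 pairwise comparisons, or 4 of 6 here) was met by 0 members in either set of arrays, where 0.492% of probe sets met it on 5 arrays and 0.202% on 6.

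**Figure D2:**
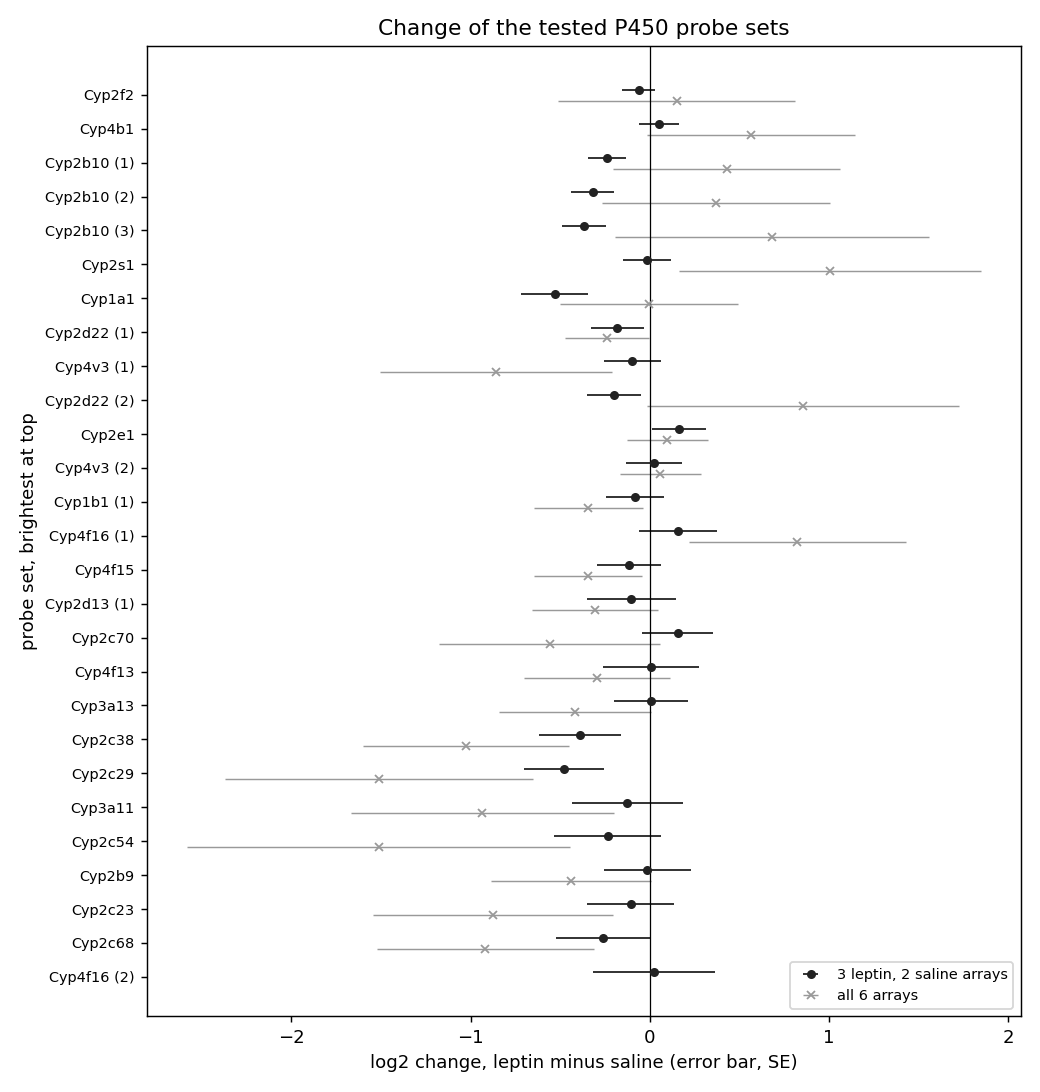
Log2 change (leptin minus saline, error bars SE) of the 27 tested P450 probe sets from the fit without saline replicate 1 (black circles) and on all 6 arrays (grey crosses, where tested), brightest at the top. The 3 Cyp2b10 probe sets, Cyp1a1 and Cyp2c29 lie left of 0 by more than 2 SE in the first fit. In the second fit the error bars are wider for each probe set tested in both, and the Cyp2b10 points lie right of 0.

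Family 1 holds the classical targets of the aryl hydrocarbon receptor, which act on polycyclic aromatic hydrocarbons. Cyp1a1 and Cyp1a2 stand next to each other in the genome, with 0 protein-coding genes between them in RefSeq's table. The bases before their start sites (RefSeq, GRCm38.p6) are printed because both genes had every leptin array below saline replicates 2 and 3. Each runs 5′ to 3′ on the gene's strand and ends at the base before the start, and capitals mark TATAAA and GCGTG, the core that the aryl hydrocarbon receptor is known to bind. Cyp1a1 is from chr9:57697363-57697612 (plus strand) and Cyp1a2 from chr9:57683656-57683905 (minus strand).
Cyp1a1: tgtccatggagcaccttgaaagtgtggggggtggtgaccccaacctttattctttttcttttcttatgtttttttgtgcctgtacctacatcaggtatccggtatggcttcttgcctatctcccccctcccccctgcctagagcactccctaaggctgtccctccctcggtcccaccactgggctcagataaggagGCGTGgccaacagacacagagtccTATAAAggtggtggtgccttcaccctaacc
Cyp1a2: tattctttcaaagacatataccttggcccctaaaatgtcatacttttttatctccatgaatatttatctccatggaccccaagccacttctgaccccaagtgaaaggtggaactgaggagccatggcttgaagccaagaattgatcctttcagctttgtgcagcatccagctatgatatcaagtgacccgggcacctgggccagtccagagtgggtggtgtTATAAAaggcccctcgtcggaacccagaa
Both motifs were searched on both strands of the 250 bases, where they do not overlap each other. Cyp1a1 holds TATAAA from 30 bases and GCGTG from 54 bases before the start, and Cyp1a2 holds TATAAA from 29 bases and no GCGTG. Of all 32851 promoter windows of this length in the table, 12.4% hold TATAAA and 28.2% hold GCGTG. Among members, 39 of 48 genes had an entry in this promoter table, with 45 windows between them. Of these windows 16 held TATAAA, from 16 genes, and 10 held GCGTG, from 9 genes. A match is a description of the letters and not a measured binding site.

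Cyp1a1 read 901, 1064 and 684 under leptin, 1370 and 1170 in saline 2 and 3, and 406 in saline 1. The leptin arrays were thus all below saline 2 and 3 and all above saline 1. The mean of the leptin arrays was 883 ± 191 (SD, n = 3), and that of saline 2 and 3 was 1270 ± 142 (SD, n = 2). The log2 change was -0.53 ± 0.18 (SE; limma unadjusted p = 0.0156, adjusted p = 1.00), and it ranged from -0.67 to -0.36 as each array was left out. On all 6 arrays it was -0.00 ± 0.50, and there it turned to 0.14 with quantile normalization and 0.15 with a common median.

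Cyp1a2, the neighbouring gene and the main family 1 enzyme of liver, was dim and below the filter. It read 23.3, 19.2 and 16.3 under leptin, 46.8 and 112 in saline 2 and 3, and 474 in saline 1. Every leptin array was below every saline array. In the fit without a filter the change was -1.21 ± 0.32 (SE; limma unadjusted p = 0.00542, adjusted p = 0.803), from levels close to the pseudocount. Cyp1b1, an extrahepatic enzyme of mesenchymal cells that hydroxylates oestradiol, has 3 probe sets. The brightest read 334, 291 and 312 under leptin, 334 and 331 in saline 2 and 3, and 583 in saline 1. These groups overlapped, with a change of -0.08 ± 0.16. The other Cyp1b1 probe sets were below the filter. One read 53.8, 19.5 and 58.7 under leptin, 45.6 and 64.0 in saline 2 and 3, and 86.5 in saline 1. The last read 9.8, 19.8 and 10.5 under leptin, 74.9 and 7.9 in saline 2 and 3, and 318 in saline 1. Groups overlapped on both, and the 3 probe sets of this gene differed widely in signal.

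Cyp2f2 and Cyp2b10 lie in one run of Cyp2 genes, taken here from Cyp2s1 to Cyp2f2. Genes beyond those ends were not examined. RefSeq's table has 15 protein-coding genes between those ends, of which 10 are Cyp2 genes. The run holds 8 of the 48 members: Cyp2s1, Cyp2b10, Cyp2b13, Cyp2b9, Cyp2b19, Cyp2g1, Cyp2a12 and Cyp2f2. The 250 bases before the start are printed for the 2 brightest of them, to the same conventions, from chr7:25897408-25897657 for Cyp2b10 and chr7:27119705-27119954 for Cyp2f2 (both plus strand).
Cyp2b10: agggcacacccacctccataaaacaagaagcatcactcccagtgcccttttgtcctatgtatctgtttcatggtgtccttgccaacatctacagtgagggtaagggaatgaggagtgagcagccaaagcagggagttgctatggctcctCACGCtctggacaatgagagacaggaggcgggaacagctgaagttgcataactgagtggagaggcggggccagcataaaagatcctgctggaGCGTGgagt
Cyp2f2: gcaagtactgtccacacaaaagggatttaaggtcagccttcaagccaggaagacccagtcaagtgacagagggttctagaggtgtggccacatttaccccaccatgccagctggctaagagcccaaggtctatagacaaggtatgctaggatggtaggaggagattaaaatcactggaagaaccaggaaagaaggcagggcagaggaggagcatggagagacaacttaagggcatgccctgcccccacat
Cyp2b10 holds GCGTG from 9 bases before the start and, as CACGC, its reverse complement from 101 bases before it, and it holds no TATAAA. Neither run of letters is in the Cyp2f2 window.

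Cyp2b10 was measured by 3 probe sets that share a gene and so are not separate evidence. The brightest read 5981, 6062 and 6159 under leptin, 6806 and 7555 in saline 2 and 3, and 1769 in saline 1. The second read 5150, 5204 and 4644 under leptin, 5724 and 6789 in saline 2 and 3, and 1472 in saline 1. The third read 3153, 3542 and 3436 under leptin, 4084 and 4652 in saline 2 and 3, and 471 in saline 1. On each of the 3, all leptin arrays were below saline replicates 2 and 3 and above saline replicate 1. The changes were -0.24 ± 0.11, -0.32 ± 0.12 and -0.37 ± 0.12 (SE; limma unadjusted p = 0.0472, 0.0236 and 0.0114, adjusted p = 1.00, 1.00 and 0.970). On all 6 arrays they were 0.43 ± 0.63, 0.37 ± 0.64 and 0.68 ± 0.88, with saline 1 the lowest of the 6. The first 2 carry the suffix s_at, which marks probes shared by several transcripts, so related Cyp2b transcripts may add to them. With the replicate number as a block, the brightest probe set had a limma unadjusted p of 0.0625, and it had 0.0541 with quantile normalization and 0.0800 with a common median.

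Cyp2f2 itself read 21561, 22261 and 21697 under leptin, 22710 and 22899 in saline 2 and 3, and 14638 in saline 1. Every leptin array was below those 2 saline arrays, but by little: the change was -0.06 ± 0.09 (SE; limma unadjusted p = 0.504), and it turned to 0.03 with quantile normalization. Cyp4b1 read 10206, 9641 and 9537 under leptin, 8719 and 10225 in saline 2 and 3, and 3234 in saline 1. Its groups overlapped, with a change of 0.05 ± 0.11 that turned to -0.06 without saline replicate 2. Cyp2s1 read 1723, 1750 and 1879 under leptin, 1647 and 1974 in saline 2 and 3, and 196 in saline 1. Its leptin arrays lay between the 2 saline arrays, with a change of -0.02 ± 0.13. Club cell markers outside the P450s were compared as a list: 4 of 5 tested were below 0 and 0 had an unadjusted p under 0.05 (limma), with a median of -0.08. Their summed signal was 71307 to 79530 with leptin and 77671 to 79576 on saline replicates 2 and 3, so the groups overlapped. Scgb1a1, the defining club cell secretoglobin, read 18473 to 22288 with leptin, 21852 and 21902 with saline, and 68880 on saline replicate 1. Markers within the sum separated in both directions. Scgb3a1 read 15769 to 16012 with leptin against 17218 and 17450 in saline 2 and 3, and Scgb3a2 17414 to 19241 against 20228 and 19279. Bpifa1 was higher on every leptin array, at 9447 to 11000 against 8198 and 8946, and Aldh1a1 overlapped. The part of club cell number in the Cyp2b10 values was not tested.

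**Figure D3:**
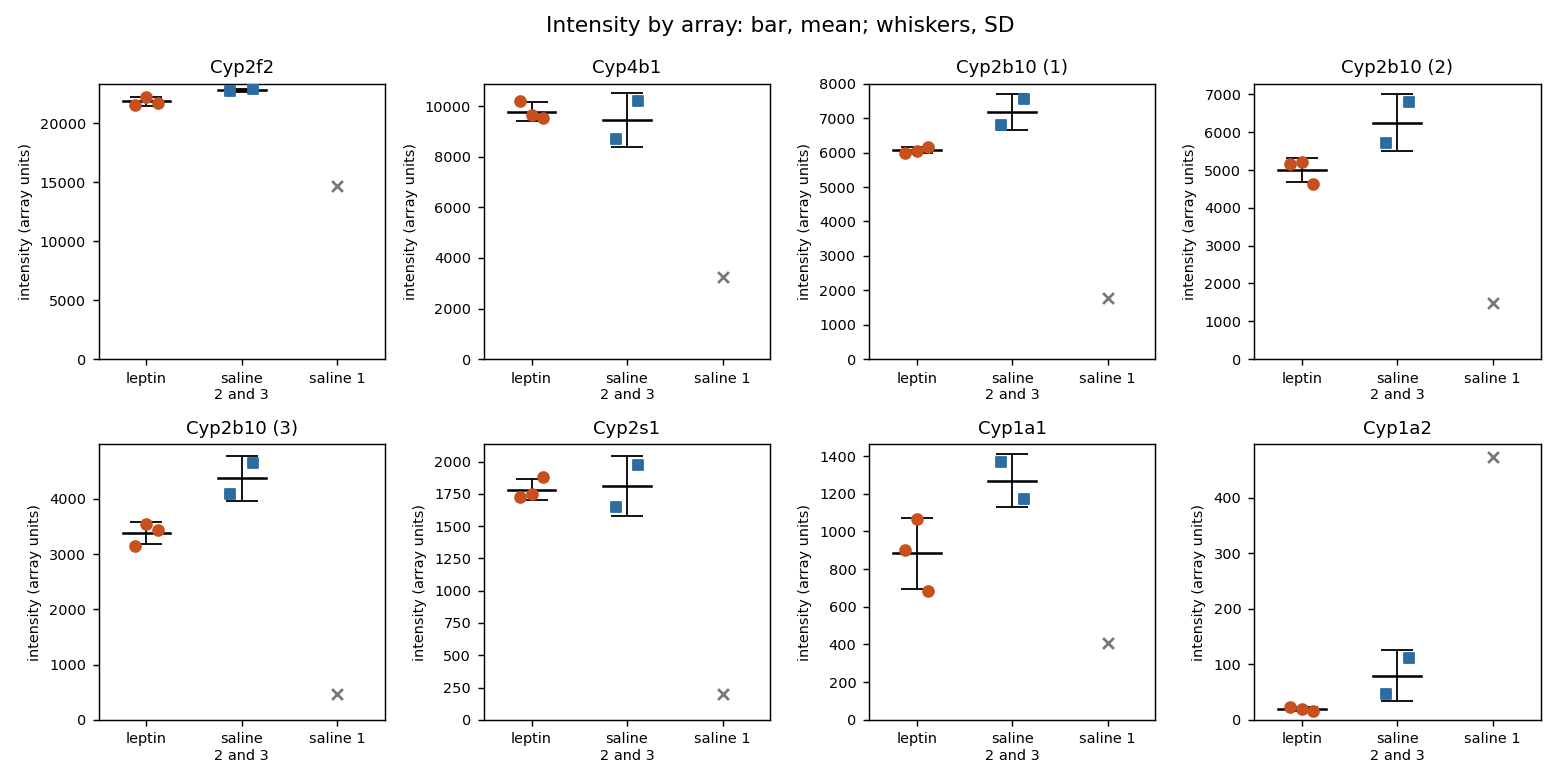
Intensity (array units, axis from 0) of Cyp2f2, Cyp4b1, the 3 Cyp2b10 probe sets, Cyp2s1, Cyp1a1 and Cyp1a2 on each array; the bar is the mean and whiskers the SD of the leptin arrays (n = 3) and of saline replicates 2 and 3 (n = 2), and saline replicate 1 stands alone. Leptin arrays lie below saline replicates 2 and 3 for Cyp2b10, Cyp1a1 and Cyp1a2, nearly level with them for Cyp2f2, and overlap them for Cyp4b1 and Cyp2s1.

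The other members in the run were dim. Cyp2b9 had values of 105 to 156 on the 5 arrays and a change of -0.01 ± 0.24, and Cyp2b19, Cyp2g1, Cyp2a12 and Cyp2b13 were below the filter. Cyp2b13 read 55.0, 32.0 and 55.1 under leptin, 154 and 77.7 in saline 2 and 3, and 539 in saline 1. Its leptin arrays were all below the saline ones, with a change of -0.95 ± 0.33 without a filter (limma unadjusted p = 0.0212, adjusted p = 0.998). Cyp2a12 read 175 on saline replicate 2 and 20.2 to 37.0 on the other 4 arrays outside saline replicate 1. The 6 tested probe sets of the run had changes below 0, from -0.37 to -0.01, and 4 of them are the Cyp2b10 and Cyp2f2 probe sets given above. Signs turned for Cyp2f2 with quantile normalization, and for Cyp2s1 with the replicate block (0.01) or without saline 3 (0.11). The sign of Cyp2b9 turned too, as its change ranged from -0.26 to 0.23 when each array was left out.

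Cyp2c and Cyp2j genes include the epoxygenases that turn arachidonic acid into epoxyeicosatrienoic acids, lipid mediators of vessel tone. Of 11 Cyp2c genes, 6 were tested, 5 with changes below 0, and the median was -0.25. Cyp2c29 read 156, 110 and 130 under leptin, 206 and 178 in saline 2 and 3, and 1805 in saline 1. Every leptin array was below every saline array, with a change of -0.48 ± 0.23 (SE; limma unadjusted p = 0.0579, and 0.0343 with the replicate block). The change ranged from -0.59 to -0.37 as each array was left out. On all 6 arrays it was -1.51 ± 0.86 (limma unadjusted p = 0.126). Cyp2c38 read 147, 118 and 166 under leptin, 221 and 170 in saline 2 and 3, and 787 in saline 1. It separated in the same way, narrowly, at -0.39 ± 0.23 (unadjusted p = 0.116 in limma). Cyp2c54, Cyp2c68 and Cyp2c23 were at -0.23, -0.26 and -0.11, with groups that overlapped, and Cyp2c70 was at 0.15. These 6 genes, and Cyp2b13, Cyp2a12, Cyp2b9, Cyp2j9, Cyp2c65, Cyp3a11 and Cyp4f18, were chosen for naming after their values were seen. How far each probe set measures its own gene among the near-identical sequences of this subfamily was not tested.

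Hepatocyte markers are given beside the Cyp2c values. The 3 tested (Alb, Apoa2 and Apoh) were below 0, with a median of -0.23 and 0 at an unadjusted p under 0.05 (limma). The summed signal of the 6 markers on the array was 490 to 635 with leptin and 700 to 717 on saline replicates 2 and 3, against 12610 on saline replicate 1. Of the markers too dim to test, Apoa1 and Fgb overlapped between the groups. Most of the sum on saline replicate 1 was Ttr (transthyretin) at 11448, which read 19.7 to 57.3 elsewhere. The part of liver-type transcripts in the Cyp2c values was not tested.

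All 5 Cyp2j probe sets, of 4 genes, were below the filter, with values of 4.8 to 112 on the 5 arrays. Cyp2j5 has 2 probe sets that differed widely: one read 77.9, 49.2 and 63.3 under leptin, 71.3 and 58.7 in saline 2 and 3, and 279 in saline 1. The other read 6.4, 5.4 and 4.8 under leptin, 9.8 and 6.2 in saline 2 and 3, and 95.3 in saline 1. Groups overlapped on both. Cyp2j9 read 112, 104 and 95.8 under leptin, 60.7 and 41.8 in saline 2 and 3, and 139 in saline 1. The leptin arrays were all above saline 2 and 3 and below saline 1. The change without a filter was 0.79 ± 0.26 (limma unadjusted p = 0.0151, adjusted p = 0.975), and 0.41 on all 6 arrays. Cyp2c65, another dim member, was at 0.82 ± 0.34 by the same fit, and at -0.19 on all 6 arrays. Without a filter, 5 of 57 members had an unadjusted p under 0.05 and were lower (2.06% of all probe sets), 2 were higher (2.72% of all), and 12 separated downwards and 3 upwards (9.28% and 10.1% of all). By the adjusted threshold 0% of probe sets passed there. The series' rule, applied to these 22626, was met by 2 members, Cyp1a2 and Cyp2j9, where 1.07% of all met it.

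Cyp2d means ran from 9.2 to 821, with 3 of 9 probe sets bright enough to be tested. Cyp2d22, a drug-metabolising enzyme of the Cyp2d group, read 880, 717 and 740 under leptin, 849 and 918 in saline 2 and 3, and 993 in saline 1 for its brighter probe set. The groups overlapped at -0.18 ± 0.15. Its second probe set read 530, 512 and 445 under leptin, 570 and 574 in saline 2 and 3, and 43.8 in saline 1. Every leptin array was below saline 2 and 3 there, at -0.20 ± 0.15. On saline 1 the 2 probe sets of this gene thus stood on opposite sides of the other arrays. Cyp2d13 was the only other Cyp2d gene bright enough to be tested. One probe set read 313, 254 and 182 under leptin, 214 and 324 in saline 2 and 3, and 415 in saline 1, overlapping at -0.10 ± 0.25. The other read 8.6, 8.2 and 48.6 under leptin, 25.4 and 14.8 in saline 2 and 3, and 22.2 in saline 1. The means over the 5 arrays, 257 and 21.1, thus differed more than the groups did. Cyp2e1, which oxidises ethanol and other small molecules and is also present in fat, read 553, 485 and 503 under leptin, 440 and 473 in saline 2 and 3, and 525 in saline 1. The leptin arrays were above saline 2 and 3, at 0.16 ± 0.15 (limma unadjusted p = 0.304). Among adipocyte markers, 3 of 4 tested were above 0, and their summed signal was 2310 to 2913 with leptin and 2279 to 2285 on saline replicates 2 and 3. Adipoq was at 0.38 ± 0.16 and Ucp1, the brown fat marker, read 5.3 to 13.4. Their part in the Cyp2e1 values was not tested.

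Cyp3a genes encode the main drug-oxidising enzymes of liver and gut. Cyp3a13 and Cyp3a11 were tested, at 0.01 ± 0.21 and -0.13 ± 0.31, with groups that overlapped. Cyp3a11 read 224 on leptin replicate 1 and 95.9 to 184 on the other 4, and 936 on saline replicate 1. Cyp3a16, Cyp3a25 and Cyp3a44 had means of 5.56 to 22.9 and were left out. All 5 Cyp3a genes read higher on saline replicate 1 than on any other array.

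Family 4 hydroxylates fatty acids and eicosanoids at the end of the chain. Cyp4v3 read 808, 664 and 606 under leptin, 772 and 703 in saline 2 and 3, and 3660 in saline 1 for its brighter probe set. Its second probe set read 361, 346 and 364 under leptin, 333 and 369 in saline 2 and 3, and 324 in saline 1. Groups overlapped on both, at -0.10 ± 0.16 and 0.02 ± 0.16, and the signs differed. The 6 Cyp4f probe sets had means of 13.7 to 270, and those tested lay between -0.12 and 0.16 for Cyp4f16, Cyp4f15 and Cyp4f13. Cyp4f18, which inactivates leukotriene B4 in neutrophils, was dim, at 19.6 to 34.7 with leptin and 85.4 and 35.9 with saline. Of neutrophil markers 5 of 5 tested were above 0, with a median of 0.40 and a summed signal of 2149 to 5217 with leptin and 1746 to 4443 in saline 2 and 3. Their part in the Cyp4f18 values was not tested. Cyp4a14 and Cyp4a31, of the subfamily induced through PPAR-alpha, read 3.1 to 39.0 on the 5 arrays. Over family 4 the tested changes ranged from -0.12 to 0.16, and over family 2 from -0.48 to 0.16.

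Saline replicate 1 ordered the members differently. Of the 12 brightest probe sets 9 read lower there than on any other array and 2 higher, and of the other 45, 36 read higher. Relative to the median of the other arrays, Cyp2f2 was at 0.658, Cyp4b1 at 0.335, Cyp2b10 at 0.133 to 0.287 and Cyp2s1 at 0.112. Dim members were far above it, with Cyp1a2 at 20.3, Cyp2c54 at 18.6 and Cyp2c29 at 11.5. Cyp2f2 still ranked in percentile 99.5 of that array. All Cyp2c genes but Cyp2c55 read higher there than on any other array, with Cyp2c54 at 2321 against 76.7 to 169.

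**Figure D4:**
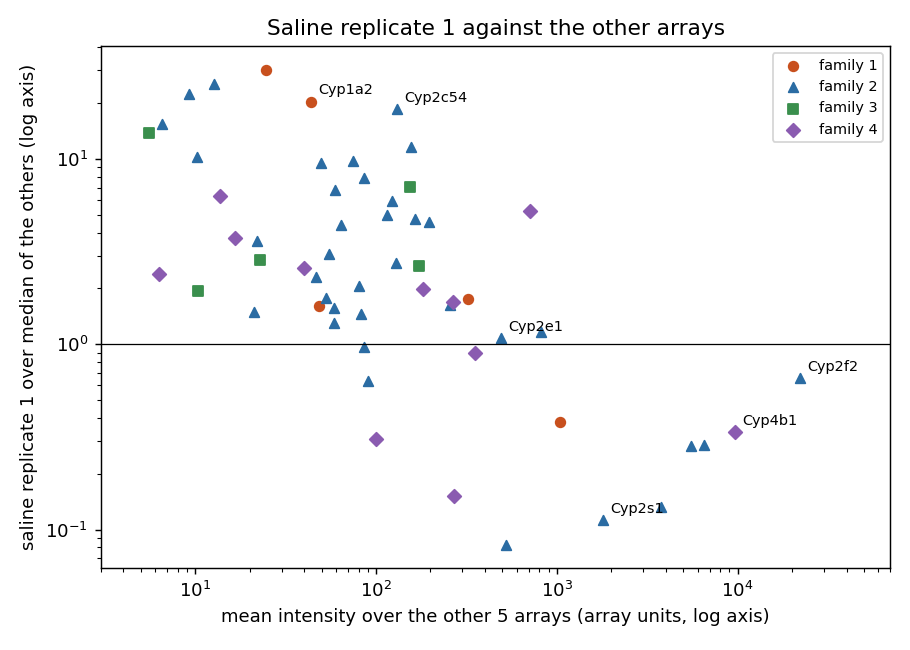
Ratio of saline replicate 1 to the median of the other 5 arrays (log axis) against the mean intensity over those 5 arrays (log axis) for the 57 P450 probe sets, by family. The brightest members lie below a ratio of 1, with Cyp2f2 at 0.658 and Cyp2s1 at 0.112, and most dim members above it, with Cyp1a2 at 20.3. Both axes use the same 5 arrays, and other probe sets of like brightness are not shown.

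Genes that work with these P450s were counted from lists by role, on the 5 arrays unless said otherwise. Among xenobiotic receptors and their partners, 9 of 9 tested genes were below 0 (49.8% of all tested probe sets were), with a median of -0.19, 0 past the adjusted threshold and 1 at an unadjusted p under 0.05. That gene was Cebpa, a transcription factor of liver and lung epithelium, at -0.30 ± 0.13 (limma unadjusted p = 0.0378). On all 6 arrays the direction turned, with 5 of 9 above 0, a median of 0.14 and Cebpa at 0.36 ± 0.59. Ahr read 1420, 1358 and 1552 with leptin and 1716 and 1456 with saline, at -0.13 ± 0.14 with groups that overlapped. Nr1i3, the receptor CAR, read 7.5 to 9.0 with leptin and 11.3 and 11.4 with saline, in percentile 3.73. Of redox partners and other phase I enzymes 14 of 18 tested were below 0, with a median of -0.10 and 0 past the adjusted threshold, whereas on all 6 arrays 13 of 18 were above 0, with a median of 0.23. Nqo1, a quinone reductase induced through Ahr and NRF2, read 104, 182 and 162 under leptin, 248 and 264 in saline 2 and 3, and 1024 in saline 1. Every leptin array was below every saline array, at -0.73 ± 0.24 (limma unadjusted p = 0.0115, adjusted p = 0.970), and at -1.37 ± 0.58 on all 6 arrays. Of conjugating enzymes 7 of 10 tested were below 0, with a median of -0.07 and 0 past the adjusted threshold, whereas on all 6 arrays 8 of 11 were above 0, with a median of 0.72. The glutathione transferases Gstp1 and Gstm1 were at -0.39 ± 0.15 and -0.28 ± 0.11 (limma unadjusted p = 0.0257 and 0.0279), and at 0.07 ± 0.50 and 0.76 ± 0.88 on all 6 arrays. Arachidonic acid enzymes outside the P450s were below 0 in 4 of 10, with a median of 0.07 and 0 past the threshold, and the smallest p belonged to Alox15 at 0.73 ± 0.40 and Ptges at 0.30 ± 0.21. On all 6 arrays 8 of 10 were below 0, with a median of -0.19. Of the 15 receptor genes on the array, those too dim to test included Nr1i3 and Ppara.

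Markers of other cells of the lung were compared as summed signals on the 5 arrays. The sum of erythroid markers was 3128 to 4228 with leptin and 7684 to 8962 in saline 2 and 3, nearly all of it from Alas2, the first enzyme of haem synthesis in red cell precursors. Alas2 passed the adjusted threshold at -1.20 ± 0.15 (limma adjusted p = 0.0496), though no probe set passed without a filter, and it was at 1.12 ± 1.86 on all 6 arrays. Slc4a1, the anion exchanger of red cells, was at -0.70, while the dim Epb42 read 22.1 to 33.9 with leptin and 18.1 and 18.4 in saline 2 and 3. The summed alveolar type II markers were at 98976 to 111444 with leptin and at 112888 to 112924 in saline 2 and 3, again without overlap. Of these markers only Sftpb separated, at 15561 to 17453 with leptin against 18917.5 and 19014. Sftpc, Sftpa1, Sftpd and Slc34a2 overlapped, as did Abca3 and Napsa, whose changes were above 0 (0.13 and 0.05). Fibroblast markers were at 24306 to 25488 and 18370 to 20417, a gap carried by the collagens Col1a1, Col1a2 and Col3a1 (0.60, 0.53 and 0.71), while Dcn, Pdgfra and Tcf21 were at 0.10, 0.09 and -0.05. Sums were higher with leptin, without overlap, for smooth muscle (8678 to 10449 against 7772 to 8058), endothelial (18472 to 20411 against 17839 to 18454) and T cell markers (477 to 690 against 338 to 459). The same held for olfactory or upper airway gland markers (2830 to 3161 against 1730 to 2353) and, as given above, adipocyte markers. The endothelial sums nearly met. Pecam1, Kdr and Car4 were higher on every leptin array, Cdh5 and Cldn5 overlapped, and so did Tek, at -0.04. Of T cell markers only Cd3d separated (177.4 to 205.5 against 139.5 and 35.6), while Cd3e, Cd3g, Cd8a and Cd4 overlapped. The olfactory or gland gap was carried by Bpifb1 (1637 to 1962 against 763 to 1016.5). Muc5b and the dim Muc5ac overlapped, and Omp was lower on every leptin array than in saline 2 and 3, at -0.57 ± 0.28. Sums overlapped for club cell, ciliated, alveolar type I, macrophage, neutrophil, B cell and cardiac muscle markers. Their part in the P450 values was not tested.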

How the data were processed

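RNA of 6 mouse lungs was measured on Affymetrix Mouse 430A arrays, with labelling from a T7-oligo(dT) primer, per the labels' protocols. The deposited table holds linear probe set intensity values. For scanner software, summarisation and genome build, the sources used here give no name. A mean trimmed by 2% at each end was 500.1 on every array, so the authors had scaled the arrays to a common mean. Their number limits the precision. The 64 control probe sets were left out, and symbols came from the platform's annotation. All 48 member genes were found by Entrez Gene ID in RefSeq's gene table (GRCm38.p6), with 0 symbols changed, and 39 of them in its separate promoter table.

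Values were turned into log2(intensity + 22), 22 being the 10th percentile of all values. After a filter on the lowest 30% of probe sets by mean, 15839 entered limma 3.58.1 (R 4.3.3; lmFit, eBayes with trend, two-sided, leptin minus saline, Benjamini-Hochberg adjustment over all of them). The p-values measure the spread between these arrays. The series does not name the test of its rule, and a 2-sample test with pooled variance was used. Gene lists were represented by each gene's brightest probe set.

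Given with values by array were the 12 brightest members, members at an unadjusted p under 0.05, family 1, and genes whose probe sets differed in sign or over 4-fold. Members, lists and the choice to keep saline replicate 1 apart were made with earlier results of these data known. With saline replicate 1 included, the deviations of leptin and saline arrays that share a replicate number correlated at 0.144, 0.109 and 0.103. Between groups, arrays of unlike number correlated at -0.147 to 0.0491, so some of these were positive too. The value of 0.144 rests on saline replicate 1. The replicate numbers may pair the arrays, but only on the evidence of these values. They are few, and they are not independent because they share arrays. Whether the arrays are paired was not tested. Alternatives were 2 other scalings, pseudocounts of 1 and 79.9, no filter or one at 50%, the replicate block, no trend, array weights, robust eBayes, leaving out each array and a threshold of 0.1.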

Additional observations from a re-analysis of the deposited data

How the results depend on the processing

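On 5 or 6 arrays, no member passed an adjusted p of 0.05 in limma under any alternative run, or of 0.1 with the settings of the report. On 5 arrays the count at an unadjusted p under 0.05 was 7 without a filter, 1 to 4 when each array was left out, and 4 with the replicate block, which shared 3 of them. The median change was -0.21 to -0.056 when each array was left out. The replicate block on 5 arrays gave the same changes as leaving out leptin replicate 1, with a median of -0.21. Signs turned for Cyp2f2 with quantile normalization (0.032) and for Cyp2s1 with the replicate block (0.0080). When each array was left out, Cyp4b1 ranged from -0.0625 to 0.17, Cyp2s1 from -0.15 to 0.11 and the dimmer Cyp4v3 probe set from -0.046 to 0.094. On 6 arrays, the count at an unadjusted p under 0.05 was 2 without a filter, 3 with array weights and 0 to 4 when each array was left out, and the median was 0.078 with the lowest 50% left out. Cyp1a1 was at 0.14 with quantile normalization, 0.15 with a common median and 0.0031 with a pseudocount of 1. With array weights, Cyp2f2 was at -0.056, Cyp2b10 at -0.21, -0.28 and -0.32, and Cyp2d22 at -0.19. When each of 6 arrays was left out, Cyp2f2 ranged from -0.062 to 0.26, Cyp2b10 from -0.24 to 0.80, -0.32 to 0.78 and -0.37 to 1.25, Cyp2s1 from -0.016 to 1.58 and Cyp1a1 from -0.53 to 0.32. Cyp2d22 ranged from -0.20 to 1.39 on its dimmer probe set and from -0.32 to -0.18 on its brighter one. Over all tested probe sets the 6-array median was 0.02, 0.10 with quantile normalization and 0.17 with a common median. The cause of these turns was not tested beyond the array left out. The limits are that 5 or 6 arrays set the precision, and dim probe sets have only values near background.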

Other observations

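Some P450 probe sets carry several symbols and were outside the members. The probe set of Cyp2a5 and Cyp2a4, enzymes that hydroxylate coumarin and testosterone and whose genes lie in the Cyp2 run described above, read 1821, 1876 and 1868 on the leptin arrays. It read 3385 and 2242 on saline replicates 2 and 3 and 170 on saline replicate 1. Every leptin array was below saline replicates 2 and 3, with a log2 change of -0.57 ± 0.17 (SE; limma unadjusted p = 0.00602, adjusted p = 0.859) on 5 arrays and of 0.72 ± 1.05 on all 6. The probe set was chosen after its values were seen. A probe set shared by Cyp4f37 and Cyp4f16 was at 0.01 ± 0.17 on 5 arrays and 0.91 ± 0.76 on all 6. Those of Cyp4a31 with Cyp4a10 and of the 2 Cyp3a41 genes were below the filter, as was Cyp4a12a, whose symbol ends in a letter.

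P450 genes of other families, which make steroids, bile acids, vitamin D metabolites and prostanoids, were counted beside the members. Of 16 on the array 10 were tested on 5 arrays, 5 with changes below 0, with a median of -0.01, and on all 6 arrays 8 of 11 were below 0, with a median of -0.43. By limma 0 had an adjusted p under 0.05 and 0 an unadjusted one. Ptgis, prostacyclin synthase, was the brightest at 2949 to 3541 under leptin against 3786 and 3343 for saline replicates 2 and 3, at -0.13 ± 0.13. The smallest p belonged to Cyp21a1, the steroid 21-hydroxylase, at 0.42 ± 0.21 (limma unadjusted p = 0.0672), and to Cyp51, the lanosterol demethylase, at -0.27 ± 0.19.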
